A study of Mus musculus with 62 samples.

Results

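The nuclear genes for the subunits of OXPHOS complexes II to V were taken from the count table by their symbols, as Sdha to Sdhd for complex II, Cyc1 and the Uqcr genes for complex III, the Cox4 to Cox8 genes for complex IV and the Atp5 genes for complex V. They made up 42 of the 11121 genes counted, 4 of complex II, 9 of complex III, 12 of complex IV and 17 of complex V. The counts came from BRB-seq, a bulk method that reads the 3′ ends of polyadenylated RNA, in the nucleus accumbens (NAc) and in the cortex of the prefrontal region (PFC) of male wild-type C57BL/6j mice aged 15 weeks. Multimodal chronic restraint stress (mCRS) mice were compared with unstressed control (CTR) mice, with 15 libraries per group in the PFC and 16 per group in the NAc. Each library held tissue of 1 hemisphere of 1 mouse, collected days after the last stress session. Which PFC and NAc libraries belong to the same mouse is not given, so all libraries were taken as independent. The isoform genes Cox4i2, Cox6b2, Cox6c2, Cox7a1, Cox7b2, Cox8b and Cox8c were not analysed here.

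Complex II, succinate dehydrogenase, passes electrons from succinate in the citric acid cycle to ubiquinone and is encoded by nuclear genes alone. Complex III passes electrons from ubiquinol to cytochrome c, complex IV passes them on to oxygen, and complex V makes ATP from the proton gradient. Complexes III, IV and V combine subunits made from mtDNA with nuclear subunits that are imported, and in the brain most of the ATP used for synaptic signalling comes from this pathway. Within complex III the nuclear core subunits Uqcrc1, Uqcrc2, Cyc1 and Uqcrfs1 are large, while Uqcrb, Uqcrh, Uqcrq, Uqcr10 and Uqcr11 are small accessory subunits.

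The promoters of these genes are known for sites of a few shared regulators, so the RefSeq promoters (GRCm38.p6, 250 bases before to 50 after the start) were searched on both strands. A promoter was matched for 32 of the 42 genes, and Sdhc, Cyc1, Uqcrb, Uqcrc2, Uqcrq, Cox4i1, Cox6a2, Cox6c, Atp5a1 and Atp5mpl had none. The core of the NRF1 motif, GCGCATGC, stood in 7 of the 32 (21.9%), against 6.19% of the 8886 counted genes with a promoter and 3.05% of all 27025 genes. Those 7 were Sdhb, Uqcr11, Uqcrc1, Cox6a1, Atp5g2, Atp5k and Atp5l. The ETS motif of GABP, CCGGAAGT, stood in 12.5% (Uqcr11, Uqcrh, Cox8a and Atp5h), against 9.16% of counted genes. The YY1 motif AAGATGGC stood in 9.38% (Atp5f1, Atp5j and Atp5j2, against 5.56%), and the CRE TGACGTCA in Uqcrfs1 alone (3.12%, against 3.76%). The GC box of Sp1, GGGCGG, was less common in these promoters than in those of counted genes, 37.5% against 71.1%, with 38.2% over all genes. The motifs were searched as plain letters, and a match is not a measured binding site. Fragments that lie upstream of the annotated gene are shown for 3 members, on the strand of the gene and with the motif in capitals, to show what these matches look like. They are Cox6a1 (NRF1, chr5:115349093-115349140, minus strand), Atp5l (NRF1 on the opposite strand, chr9:44920955-44920992, minus strand) and Uqcr11 (ETS, chr10:80406860-80406907, minus strand).
Cox6a1: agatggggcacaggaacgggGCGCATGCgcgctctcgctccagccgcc
Atp5l: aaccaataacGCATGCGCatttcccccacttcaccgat
Uqcr11: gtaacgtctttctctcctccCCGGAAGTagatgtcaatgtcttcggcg
In Cox6a1 the motif overlaps its own copy on the opposite strand.

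Library totals ranged from 945286 to 4857359 counts. Their medians were 2398072 for PFC CTR and 1966931 for PFC mCRS libraries, and 2884276.5 for NAc CTR and 2615250.5 for NAc mCRS libraries. The median share of the listed genes with a count in the PFC was 86.3% for CTR and 84.1% for mCRS libraries, and in the NAc 91.8% for both groups. The dissections carried the markers of their regions, as the striatal projection neuron markers (Drd1, Drd2, Penk and 5 others) summed to between 2652 and 7557 CPM (counts scaled to library size) in the NAc libraries other than NAc CTR 7, and to at most 1145 CPM in the PFC. NAc CTR 7 had 511 CPM of these markers and 25.4 CPM of the markers of excitatory cortical neurons. NAc mCRS 10 had 25300 CPM of choroid plexus markers, against at most 460 CPM in the other NAc libraries. The counts and medians of the members for mCRS in the NAc and for the interaction are given with and without these 2 libraries. Other NAc results include both unless stated.

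In the PFC, most nuclear subunits of complexes III, IV and V had higher counts in mCRS than in CTR mice. After genes of few counts were removed 40 of the 42 members remained, of which 32 had a log2 fold change above 0, with a median of 0.21. Over all 8916 genes tested 49.3% were higher, with a median of -0.01. At an unadjusted p below 0.05 there were 12 of the 40 members, all higher in mCRS, where 2.12% of all genes tested were called higher and 1.38% lower. With edgeR's quasi-likelihood test 0 members had a Benjamini-Hochberg FDR below 0.05 (0% of all genes), and the smallest FDR was 0.560. For 7 of the 12 members the FDR was 0.9997, and for the other 5 it is given with the gene. DESeq2 called 13 members at an unadjusted p below 0.05 and 1 at an FDR below 0.05, Uqcrb (FDR = 0.0389), with 8297 of the 8916 genes and 17 of the 40 members left without an adjusted p by its own filter. The PFC mCRS libraries had a lower median share of genes detected, and a fit with this share as covariate left 2 members at a p below 0.05, Uqcrb (0.57, p = 0.0148) and Sdha (0.46, p = 0.0236), with 25 of 40 members higher and a median of 0.10. In that fit the median was -0.20 for complex II, 0.16 for complex III, 0.095 for complex IV and 0.046 for complex V. The part of the genes detected in the result was not tested. In bulk tissue, a different mix of cells and a different amount of RNA per cell cannot be told apart.

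**Figure D1:**
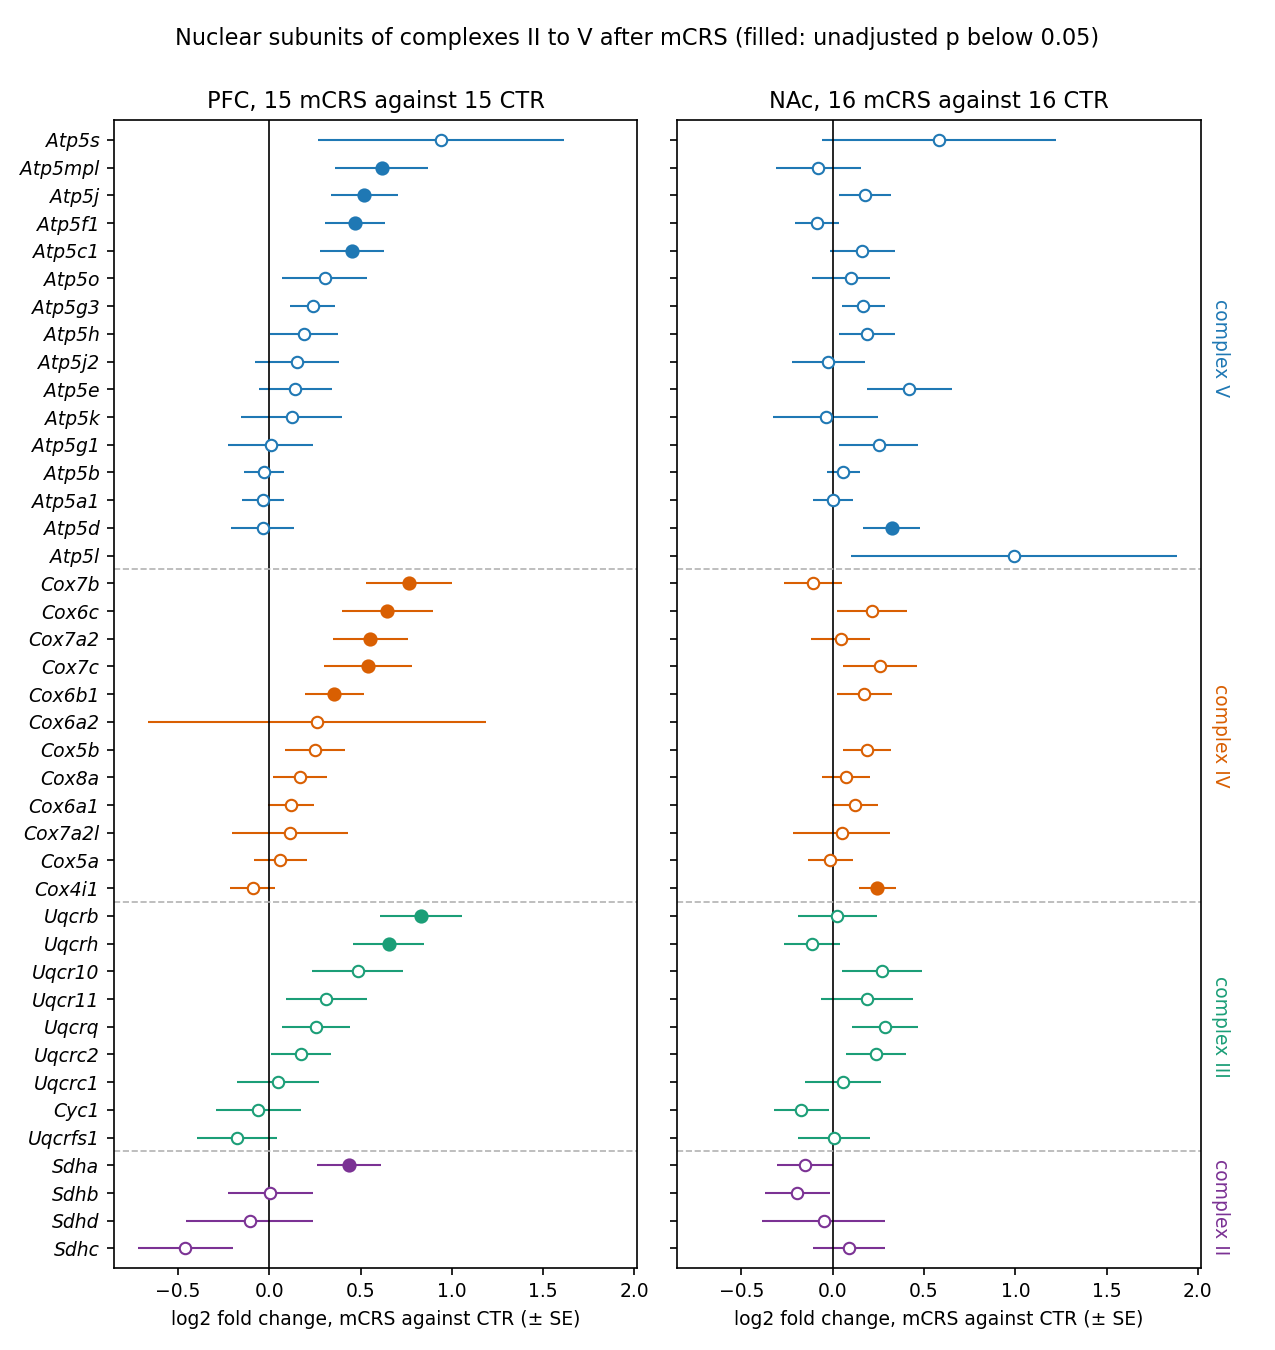
Log2 fold change with its standard error (x axis) for each nuclear subunit (y axis, sorted by the PFC value within its complex), in the PFC on the left and the NAc on the right. Filled points have an unadjusted p below 0.05, 12 in the PFC and 2 in the NAc, and a gene with no point in a panel did not pass the filter there.

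As a share of all counts in a library, the 42 genes together took 1.51% ± 0.160 in PFC CTR mice and 1.71% ± 0.223 in PFC mCRS mice (SD, 15 libraries each), a description with no test. By complex, the largest part of this difference lay in complex IV, with 0.566% ± 0.0786 in CTR and 0.656% ± 0.142 in mCRS mice. The share of complex V was 0.642% ± 0.0664 and 0.707% ± 0.0549, and that of complex III 0.232% ± 0.0422 and 0.276% ± 0.0482. Complex II had the same share within its spread, 0.0721% ± 0.0148 and 0.0735% ± 0.0155. In the NAc the sum of all members was 1.44% ± 0.152 for CTR and 1.53% ± 0.149 for mCRS (SD, 16 libraries each). The groups overlapped in every complex and in both regions.

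**Figure D2:**
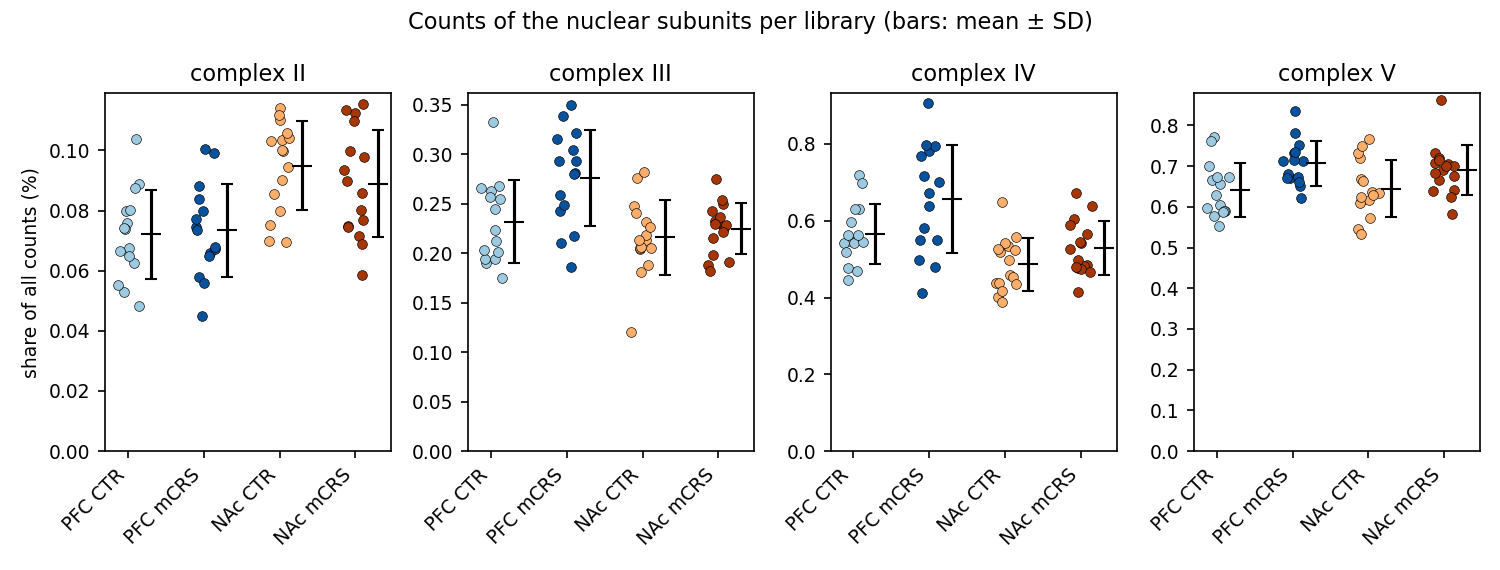
Share of all counts in percent (y axis, from 0) taken by the nuclear subunits of complexes II, III, IV and V in each library of the 4 groups (x axis), with bars for the mean and SD. In the PFC the shares of complexes III, IV and V have higher means in mCRS than in CTR mice, with overlapping libraries, and the mean share of complex II is higher in the NAc than in the PFC.

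Complex II had no common direction in the PFC, with 2 of 4 genes higher after mCRS and a median of -0.05. Sdha (ENSMUSG00000021577, chr13:74322254-74350280 in GRCm38, as for all positions here), the flavoprotein subunit that oxidizes succinate, ranged in CTR mice from 7.19 to 8.72 log2 CPM, the log2 of CPM with a prior count of 2, with a median of 8.22, and in mCRS mice from 7.94 to 9.24 with a median of 8.64. Of the 15 mCRS libraries, 11 lay above the CTR median and 6 above the highest CTR library. Its log2 fold change was 0.44 (standard error 0.18, p = 0.0167). The membrane anchor Sdhc (ENSMUSG00000058076, chr1:171127165-171150603) lay on the other side, at -0.46 (standard error 0.26, p = 0.0835). It had medians of 7.42 log2 CPM in CTR and 7.07 in mCRS mice, where 3 mCRS libraries were below the lowest CTR library at 6.34. Sdhc has the longest principal transcript of the 42 genes, at 3171 bases. The iron-sulfur subunit Sdhb (0.01) and the anchor Sdhd (-0.11) had the remaining fold changes.

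In complex III, 7 of 9 genes were higher in the PFC after mCRS, and the median was 0.26. All 5 small accessory subunits were higher (median 0.48), while the 4 core subunits had a median of -0.01 with 2 of them higher. This division was made after the values had been seen. Uqcrb (ENSMUSG00000021520, chr13:66900617-66905378), which binds near the ubiquinone site, had the smallest p of all members. Its levels ran from 6.78 to 8.76 log2 CPM in CTR mice, with a median of 7.76, and from 7.21 to 9.57 in mCRS mice, with a median of 8.87. In mCRS mice 13 of 15 libraries were above the CTR median and 8 above every CTR library. The log2 fold change was 0.83 (standard error 0.22, p = 0.00047, FDR = 0.560). Of the 70-base windows in the last 500 bases of its transcript, 34.6% also occur in transcripts of other genes, and a read that maps to more than 1 place is not counted as uniquely mapped.

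The hinge protein Uqcrh (ENSMUSG00000063882, chr4:116066965-116075071), which links cytochrome c1 with cytochrome c, ranged from 7.41 to 9.69 log2 CPM in CTR mice (median 8.98) and from 8.02 to 10.38 in mCRS mice (median 9.52). In 12 of 15 mCRS libraries it was above the CTR median, and its log2 fold change was 0.65 (standard error 0.20, p = 0.0016, FDR = 0.665). The other accessory subunits did not pass a p of 0.05, with log2 fold changes of 0.48 for Uqcr10 (p = 0.0566), 0.31 for Uqcr11 and 0.26 for Uqcrq. Among the core subunits, Uqcrc2 (0.17) and Uqcrc1 (0.05) were above 0 and the heme protein Cyc1 (-0.06) and the Rieske iron-sulfur protein Uqcrfs1 (-0.18) below it. Uqcrfs1 was the lowest of the complex.

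In complex IV, 11 of 12 genes were higher in the PFC after mCRS, with a median of 0.26. The 5 genes with a p below 0.05 were all small subunits that surround the catalytic core made from mtDNA. Cox7b (ENSMUSG00000031231, chrX:106015700-106022450) ranged from 8.20 to 10.42 log2 CPM in CTR mice (median 9.16) and from 7.80 to 11.16 in mCRS mice (median 9.84). Of the mCRS libraries 10 of 15 were above the CTR median and 4 above all CTR libraries, while 1 lay below the lowest CTR library. The log2 fold change was 0.77 (standard error 0.24, p = 0.0020, FDR = 0.802). Cox7a2 (ENSMUSG00000032330, chr9:79755361-79759878) had medians of 8.96 and 9.55 log2 CPM in CTR and mCRS mice, over ranges of 8.14 to 9.95 and 7.81 to 10.49. The difference was 0.55 on the log2 scale (standard error 0.21, p = 0.0094), and 5 mCRS libraries were above every CTR library. For neither gene does a 70-base window near the 3′ end occur in another gene.

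Cox6c (ENSMUSG00000014313, chr15:35925886-35938246) ran from 6.90 to 9.61 log2 CPM in CTR mice (median 7.97) and from 7.76 to 9.71 in mCRS mice (median 8.83). The groups overlapped, with 12 of 15 mCRS libraries above the CTR median and 3 above every CTR library. This gave a log2 fold change of 0.65 (standard error 0.25, p = 0.0120), and 17.6% of its windows near the 3′ end also occur in other genes. Cox7c (ENSMUSG00000017778, chr13:86044816-86046904) had medians of 8.43 in CTR and 8.95 in mCRS mice (ranges 6.69 to 9.75 and 6.75 to 10.12). It had a log2 fold change of 0.54 (standard error 0.24, p = 0.0285), and 55.7% of its windows near the 3′ end also occur in other genes, the largest share in this complex. Cox6b1 (ENSMUSG00000036751, chr7:30616861-30626151), a subunit on the side of the intermembrane space, had the narrowest CTR range of the 5, 7.54 to 8.55 (median 8.12). In mCRS mice it ranged from 7.64 to 9.03 (median 8.59), with 8 libraries above every CTR library, and the log2 fold change was 0.36 (standard error 0.16, p = 0.0304). Both lost a p below 0.05 without PFC mCRS 3 (p = 0.0629 for Cox6b1 and 0.0891 for Cox7c) and without PFC mCRS 9. Cox6b1 also lost it without PFC mCRS 1, PFC mCRS 11 or PFC CTR 10, and Cox7c without PFC mCRS 14 or PFC CTR 6.

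The 3 larger nuclear subunits of complex IV had a median of 0.06. Cox4i1, which holds a site for allosteric control by ATP, was the lowest at -0.09, with Cox5a at 0.06 and Cox5b at 0.25. The small subunits Cox8a (0.17), Cox6a1 (0.12) and Cox7a2l (0.11), the last a factor of supercomplex assembly, had a p above 0.05. Cox6a2, the isoform of heart and skeletal muscle, was at 0 counts in 24 of the 62 libraries, and its fold change of 0.26 had a standard error of 0.93.

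For complex V, 12 of the 15 genes tested were higher in the PFC after mCRS, with a median of 0.19. In the catalytic head, the alpha subunit Atp5a1 (-0.04) and the beta subunit Atp5b (-0.03), and the delta subunit Atp5d (-0.04) were close to 0 and were the 3 lowest. The gamma subunit Atp5c1 (ENSMUSG00000025781, chr2:10056016-10080510), the rotating shaft, had a range of 7.38 to 9.56 log2 CPM in CTR mice (median 8.62) and 8.13 to 9.57 in mCRS mice (median 9.11). Its log2 fold change was 0.45 (standard error 0.17, p = 0.0114), with 12 of 15 mCRS libraries above the CTR median. The epsilon subunit Atp5e had a log2 fold change of 0.14.

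All 4 subunits of the peripheral stalk, which keeps the head from turning, were higher after mCRS, with a median of 0.39. The b subunit Atp5f1 (ENSMUSG00000000563, chr3:105942698-105960099) had levels of 8.55 to 10.39 log2 CPM in CTR mice (median 9.29) and 8.70 to 10.48 in mCRS mice (median 9.78), which differed by 0.47 on the log2 scale (standard error 0.17, p = 0.0062, FDR = 0.945). Atp5j (ENSMUSG00000022890, chr16:84827866-84835625) had medians of 9.34 and 9.86 log2 CPM (ranges 8.12 to 10.09 and 8.19 to 10.71) and a log2 fold change of 0.52 (standard error 0.18, p = 0.0064, FDR = 0.945). In these genes 12 and 11 of 15 mCRS libraries were above the CTR median. The other stalk genes were Atp5o, the oligomycin sensitivity protein, at 0.30 and Atp5h at 0.19.

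In the membrane part of complex V, Atp5mpl (ENSMUSG00000021290, chr12:111961375-111966977), a small proteolipid bound to the enzyme, ranged from 5.26 to 8.57 log2 CPM in CTR mice (median 7.29) and from 7.21 to 8.97 in mCRS mice (median 8.22). In 14 of 15 mCRS libraries it was above the CTR median, the most of any member, and its log2 fold change was 0.61 (standard error 0.25, p = 0.0192). The small subunits Atp5j2 (0.15) and Atp5k (0.12) and the c ring genes Atp5g3 (0.24, p = 0.0555) and Atp5g1 (0.01) did not pass a p of 0.05. Atp5g2, the third gene of the c ring, had 201 counts in the PFC and 360 in the NAc and was at 0 in 24 libraries, and all 372 of the windows near its 3′ end also occur in other genes. Atp5l, with 71.5% of such windows, had 843 and 1091 counts and none in 16 libraries. Both were too low for the test in the PFC. Atp5s, the coupling factor B, was the highest of complex V at 0.94 with a standard error of 0.67 (p = 0.168), and was at 0 in 6 libraries.

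**Figure D3:**
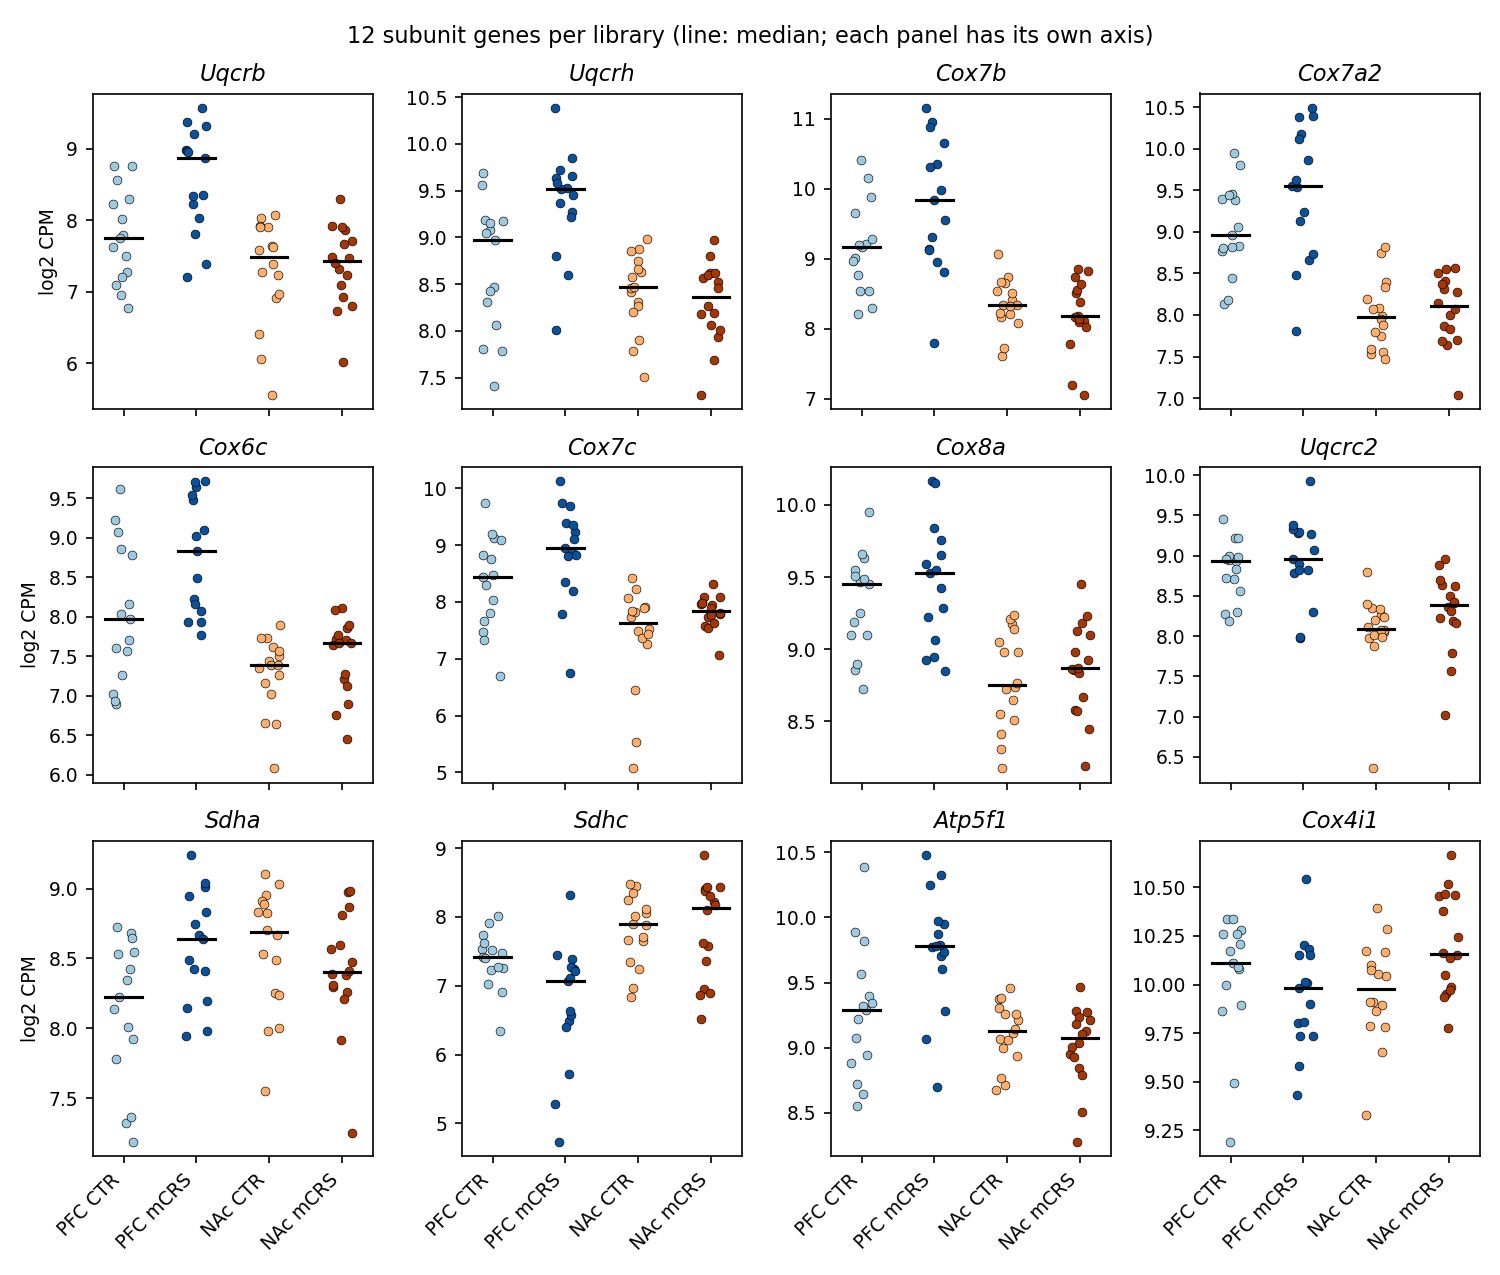
Log2 CPM per library (y axis, a separate range in each panel) of 12 subunit genes in PFC CTR, PFC mCRS, NAc CTR and NAc mCRS mice (x axis), with a line at each median. In Uqcrb 8 of 15 PFC mCRS libraries are above every PFC CTR library, while for Cox7a2, Cox7b, Cox6c, Cox7c, Cox8a and Uqcrc2 8 to 10 of 15 PFC CTR libraries are above every NAc CTR library.

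Short transcripts were mostly higher in the PFC after mCRS, among the members and over all genes. Among the members with a principal transcript under 700 bases, 18 of 18 were higher in the PFC, with a median of 0.29. Over all 201 genes of that length 79.1% were higher, with a median of 0.26. At an unadjusted p below 0.05, 36 of these 201 genes were higher and 1 lower. The members among the 36 were Uqcrb, Uqcrh, Cox6b1, Cox6c, Cox7a2, Cox7c and Atp5mpl. From 700 to under 1500 bases the medians were 0.19 for 14 members (10 higher) and 0.07 for 1245 genes. From 1500 to under 3000 bases they were 0.05 for 7 members (4 higher) and -0.01 for 2990 genes. Across the 40 members the log2 fold change and the log2 length had a Pearson correlation of -0.35, and across all 8914 genes with a length -0.10, which describes genes measured in the same libraries. The 14 tested members with a copied window near the 3′ end were all higher, with a median of 0.38 and 7 at a p below 0.05. Their copied share ran from 0.464% of windows in Atp5c1 to 68.7% in Atp5g1. The most copied of them were Atp5g1 (log2 fold change 0.01), Cox7c (55.7%, 0.54), Atp5h (53.8%, 0.19) and Uqcrb (34.6%, 0.83). Of the 26 without such a window 18 were higher, with a median of 0.13 and 5 at a p below 0.05, so 7 of the 12 members called have copied windows. The part of length or of copies in the differences was not tested.

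**Figure D4:**
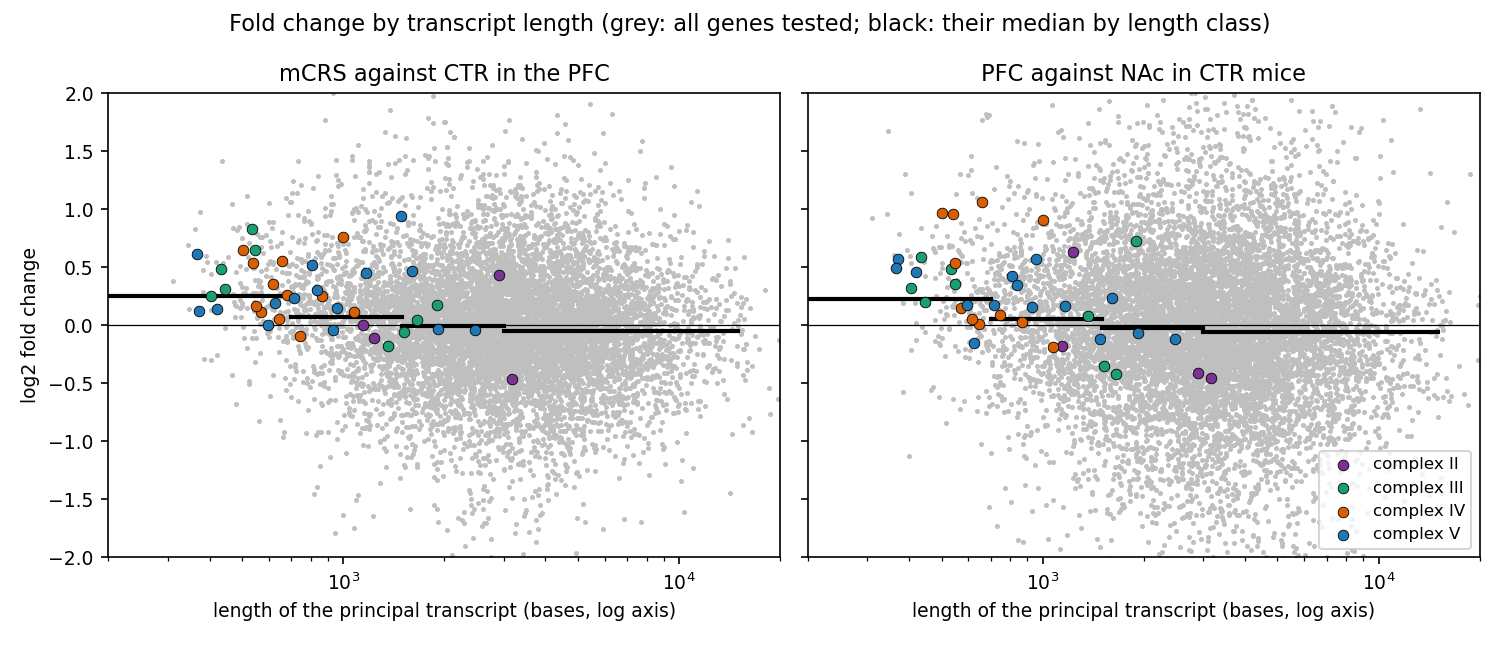
Log2 fold change (y axis, values past 2 not drawn) against the length of the principal transcript in bases (x axis, log scale), for mCRS against CTR in the PFC on the left and for PFC against NAc in CTR mice on the right. Grey points are all genes tested, black lines their median per length class (0.26 and 0.22 under 700 bases) and coloured points the members by complex, which are mostly above 0 where the transcript is short.

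In the NAc, 28 of the 40 members tested had a log2 fold change above 0 after mCRS, with a median of 0.09. Over all 10141 genes tested 49.3% were higher, with a median of -0.01. At an unadjusted p below 0.05 there were 2 members, both higher, where 0.986% of all genes were called higher and 1.06% lower. At an FDR below 0.05 there were 0 members with edgeR and 0 with DESeq2, which also had 2 at an unadjusted p below 0.05, and edgeR called 1 gene (0.00986%). In complex II 1 of 4 genes was higher (median -0.10), in complex III 7 of 9 (0.06), in complex IV 9 of 11 (0.12) and in complex V 11 of 16 (0.17). Under 700 bases 14 of 18 members were higher (median 0.18), beside 63.0% of all 211 genes of that length (median 0.07). From 700 to under 1500 bases 10 of 14 members were higher (median 0.13), beside 57.6% of 1355 genes (median 0.06). The part of length in the NAc was not tested. Without NAc CTR 7 and NAc mCRS 10, a setting chosen after seeing the data, 1 member had a p below 0.05, 27 of 40 were higher and the median was 0.04. The medians of the complexes were then -0.12 for complex II, 0.019 for complex III, 0.046 for complex IV and 0.16 for complex V, and without NAc mCRS 10 alone 0.024 for complex III and 0.071 for complex IV.

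Cox4i1 (ENSMUSG00000031818, chr8:120668222-120674207) ranged in the NAc from 9.33 to 10.39 log2 CPM in CTR mice (median 9.98) and from 9.77 to 10.67 in mCRS mice (median 10.16), with 12 of 16 mCRS libraries above the CTR median. Its log2 fold change was 0.24 (standard error 0.10, p = 0.0199, FDR = 0.99995). Atp5d (ENSMUSG00000003072, chr10:80138632-80145818) ranged from 7.63 to 9.03 log2 CPM in CTR mice (median 8.57) and from 7.62 to 9.66 in mCRS mice (median 8.87). The log2 fold change was 0.32 (standard error 0.15, p = 0.0420, FDR = 0.99995), and it was 0.25 (p = 0.104) without NAc mCRS 10. Its p was above 0.05 in 13 of the 32 fits that left out 1 library. The members of smallest p in the PFC had small differences here, with 0.03 for Uqcrb, -0.11 for Uqcrh, -0.11 for Cox7b and -0.09 for Atp5f1. Of the other members called in the PFC, Cox7c (0.26), Cox6c (0.21), Atp5j (0.18), Cox6b1 (0.17), Atp5c1 (0.16) and Cox7a2 (0.04) were above 0 here. Sdha (-0.15) and Atp5mpl (-0.08) were below it. Sdhb was the lowest at -0.19. The largest values, 0.99 for Atp5l (standard error 0.89) and 0.58 for Atp5s (standard error 0.64), belonged to genes of few counts. The other fold changes above 0.2 were those of Atp5e (0.42, p = 0.0754), Uqcrq (0.29), Uqcr10 (0.27), Cox7c (0.26), Atp5g1 (0.25), Uqcrc2 (0.23) and Cox6c (0.21). Cox6a2 and Atp5g2 were too low to be tested.

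Of the 39 members tested in both regions, 22 were higher after mCRS in both, 9 in the PFC alone, 5 in the NAc alone and 3 in neither. Whether the difference between mCRS and CTR mice was unequal in the regions was tested as an interaction over all 62 libraries. Of 41 members tested, 5 were more positive in the PFC and 1 more negative at an unadjusted p below 0.05, where 1.45% and 1.64% of all 11025 genes were called in these directions. At an FDR below 0.05 there were 0 members with edgeR and 0 with DESeq2, which had 7 at an unadjusted p below 0.05, and edgeR called 1 gene (0.00907%). The 5 were Cox7b (difference of log2 fold changes 0.87, standard error 0.29, p = 0.0036), Uqcrb (0.80, standard error 0.32, p = 0.0134), Uqcrh (0.76, standard error 0.25, p = 0.0034), Sdha (0.58, standard error 0.23, p = 0.0149) and Atp5f1 (0.54, standard error 0.20, p = 0.0083). Cox4i1 was the member with the opposite sign (-0.34, standard error 0.15, p = 0.0305), and all 6 had an FDR of 0.99997. For Sdha the NAc values ran from 7.55 to 9.11 log2 CPM in CTR mice and from 7.25 to 8.98 in mCRS mice, with 4 of 16 mCRS libraries above the CTR median of 8.69. Over the 41 members the median difference was 0.08, with 25 above 0, beside -0.02 over all genes. Among transcripts under 700 bases 12 of 19 members were above 0, with a median of 0.12. Over all 226 genes of that length 62.8% were above 0, with a median of 0.18. At an unadjusted p below 0.05, 15 of these 226 genes were more positive in the PFC and 1 more negative. The part of length in the interaction was not tested. Without the 2 NAc libraries that stand apart, 7 members had a p below 0.05 and the median was 0.06. The same 6 members were past 0.05 when the share of genes detected was a covariate.

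In CTR mice some members differed between the PFC and the NAc at an FDR below 0.05, although the libraries of the 2 regions overlapped for every member tested. Of 39 members tested, 29 were higher in the PFC, with a median log2 fold change of 0.18, beside -0.02 over all 9932 genes. At an FDR below 0.05, 6 members were higher in the PFC and 0 lower, where 4.23% of all genes were called higher and 2.09% lower, and DESeq2 added Sdhc as a lower member (log2 fold change -0.50, FDR = 0.0495). The same PFC CTR libraries enter this comparison and the one with mCRS, so they are not independent. In complex IV 10 of 11 genes were higher in the PFC (median 0.15), in complex III 7 of 9 (0.32), in complex V 11 of 15 (0.18) and in complex II 1 of 4 (-0.29). The median of complex IV was 0.35 with no filter and 0.32 to 0.37 without PFC CTR 2, 7, 9, 10, 11 or 15. In these fits Cox6a2 was also tested, and the PFC CTR libraries named had 0 or few counts of it. The median of complex V was 0.28 when the share of genes detected was a covariate. Short transcripts were again mostly higher. Under 700 bases 16 of 17 members were higher in the PFC with a median of 0.46, and over all 210 genes of that length the median was 0.22 and 72.9% were higher. Across the 39 members the correlation of log2 fold change with log2 length was -0.55, against -0.08 across all genes.

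Among the 39 members tested, Cox7a2 had the largest difference between the regions, from 7.47 to 8.82 log2 CPM in the NAc (median 7.97) against 8.14 to 9.95 in the PFC, where 10 of 15 libraries were above every NAc library. The regions differed by 1.07 on the log2 scale (standard error 0.17, FDR = 6.5e-06). Cox6c in the NAc ranged from 6.08 to 7.89 (median 7.39), and 8 of 15 PFC libraries were above this range (log2 fold change 0.97, standard error 0.23, FDR = 0.0028). When the share of genes detected was a covariate, its FDR was 0.0761. Cox7c, from 5.07 to 8.41 in the NAc (median 7.63), differed by 0.96 on the log2 scale (standard error 0.25, FDR = 0.0072). Cox7b, from 7.60 to 9.07 in the NAc (median 8.34), differed by 0.91 (standard error 0.18, FDR = 0.00021). Cox8a (ENSMUSG00000035885, chr19:7215153-7217616) lay between 8.18 and 9.24 log2 CPM in the NAc (median 8.75) and between 8.72 and 9.95 in the PFC (median 9.46), with a log2 difference of 0.54 (standard error 0.14, FDR = 0.0056). All 5 genes encode small subunits of complex IV. Cox6a2, too low for the test, had no count in 5 of 15 PFC CTR and 8 of 16 NAc CTR libraries and a mean of 2.64 log2 CPM in the PFC against 0.63 in the NAc (SD 2.45 and 1.52). With 1 library left out, Cox6a2 passed the filter only without PFC CTR 2, 7, 9, 10, 11 or 15. PFC CTR 9 had 7 counts of it and the other libraries named had 0. In these 6 fits its log2 fold change was 2.91 to 2.93 (FDR 0.0993 to 0.114). Passing the filter depended on leaving out a PFC library in which Cox6a2 was low.

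Uqcrc2 (ENSMUSG00000030884, chr7:120635176-120659524) was, with edgeR and all libraries, the only tested member outside complex IV at an FDR below 0.05 between the regions. Without PFC CTR 8, Atp5j also had an FDR below 0.05 (0.0471). Uqcrc2 ranged from 6.36 to 8.80 log2 CPM in the NAc (median 8.09) and from 8.19 to 9.46 in the PFC (median 8.94). In the PFC all 15 libraries were above the NAc median. Its log2 fold change was 0.73 (standard error 0.16, FDR = 0.00089), while its partner in the core, Uqcrc1, had -0.42 (p = 0.0559). All 431 windows near the 3′ end of Uqcrc2 overlap the gene Pdzd9 at the same locus, and whether the counting used strand is not given in the sources used here. Of complex II 3 of 4 genes were lower in the PFC, with 0 at an FDR below 0.05 and with Sdhc at -0.45 (p = 0.0180), Sdha at -0.41 (p = 0.0181), Sdhb at -0.18 and Sdhd at 0.63 (p = 0.0758). At an unadjusted p below 0.05, 12 of the 39 members were higher in the PFC and 2 lower. Of all 9932 genes tested, 873 were higher and 618 lower at this level. In complex III, Uqcr10 (0.59) and Uqcrb (0.49) had an unadjusted p below 0.05. The genes of complex V with an unadjusted p below 0.05 were Atp5j (0.43), Atp5j2 (0.57), Atp5k (0.57) and Atp5e (0.46), all at an FDR above 0.1, and the head subunits Atp5a1 (-0.12) and Atp5b (-0.06) were close to 0.

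The cell type markers differed between the regions as well. All 8 striatal markers were lower and all 5 excitatory cortical markers higher in the PFC, and all 7 oligodendrocyte markers were lower in the PFC, with 6 of them at an FDR below 0.05. Their sums ran from 1632 to 6358 CPM in PFC CTR and from 5540 to 8849 CPM in NAc CTR libraries, and 0 of the 7 oligodendrocyte markers was at 0 in any library. The excitatory list summed to between 710 and 1399 CPM in PFC CTR and to at most 276 CPM in NAc CTR libraries, where Neurod6 was at 0 in 8 of 16 libraries. The part of these cell types in the differences between regions was not tested. Without NAc CTR 7, the count was again 6 members at an FDR below 0.05 and the median 0.21. Between mCRS and CTR mice of the PFC the lists moved less. Of 6 astrocyte markers 5 were lower (median -0.15), of which Slc1a3 had a p of 0.0043, and their sums ran from 1557 to 3799 CPM in CTR and 1494 to 3631 CPM in mCRS mice with Aldh1l1 at 0 in 2 mCRS libraries. Of the excitatory markers 4 of 5 were lower (median -0.20, with 0 at a p below 0.05), and 5 of 7 microglia, 4 of 7 oligodendrocyte, 4 of 8 striatal, 1 of 3 endothelial and 1 of 2 choroid plexus markers tested were higher. Tac1 of the striatal list was higher with a p below 0.05 (0.69, p = 0.0438), as was 1 microglia marker (p = 0.0443). Between mCRS and CTR mice of the NAc, 4 of 5 endothelial markers were lower (median -0.55), with Cldn5 at a p of 0.0401 and sums of 158 to 452 CPM in CTR and 65.1 to 284 CPM in mCRS mice. There, 3 of 6 astrocyte markers were lower, of which Slc1a3 had a p of 0.0171. In the same comparison 3 of 7 microglia, 4 of 7 oligodendrocyte, 4 of 8 striatal and 3 of 3 choroid plexus markers were higher. Of the choroid plexus markers 2 had a p below 0.05, and 1 was the only NAc gene that edgeR called (FDR = 0.0339). Their sums had medians of 254 CPM in CTR and 238 CPM in mCRS libraries, with 25300 CPM in NAc mCRS 10. Without the 2 NAc libraries that stand apart, 0 genes had an FDR below 0.05. The part of these cell types in the results for mCRS was not tested.

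Other genes of the pathway were followed in the same fits. Of 36 nuclear complex I subunits tested, 26 were higher in the PFC after mCRS, with a median of 0.20 and 6 at a p below 0.05, led by Ndufv2 (0.60, p = 0.0025), Ndufa4 (0.68, p = 0.0028) and Ndufc2 (0.52, p = 0.0113). Ndufa4 is named as complex I by its symbol and is now known as a subunit of complex IV. All 7 mtDNA protein genes counted were higher with a p below 0.05 and a median of 0.42, with the smallest p for mt-Nd2 (0.37, p = 0.00071), mt-Cytb (0.43, p = 0.0011) and mt-Nd1 (0.42, p = 0.0014). In the NAc 20 of 36 complex I genes and 6 of 7 mtDNA genes were higher, with medians of 0.04 and 0.06 and 0 at a p below 0.05. Cycs, the cytochrome c that carries electrons from complex III to complex IV, had a log2 fold change of 0.88 (standard error 0.37, p = 0.0206) in the PFC and 0.13 (p = 0.758) in the NAc.

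The factors that assemble complexes II to V had no common direction. Of 29 assembly factors tested in the PFC 17 were higher and 12 lower, with a median of 0.04, and Pet100 (1.36, standard error 0.64, p = 0.0379), a factor of complex IV, was the only one with a p below 0.05, followed by Cox20 (0.84, p = 0.0945) and Sdhaf2 (0.56, p = 0.143). In the NAc 13 of 31 were higher, with a median of -0.05. Of 8 regulators of nuclear OXPHOS genes tested in the PFC, 3 were higher, with a median of -0.14 and 0 at a p below 0.05. The smallest p values were those of the coactivator Ppargc1b (-1.48, standard error 0.81, p = 0.0722), Nrf1 (1.42, p = 0.162) and the receptor Esrra (-0.69, standard error 0.59, p = 0.244). The standard errors of these 3 regulators were larger than those of nearly all subunits.

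Within a group, the members varied little together. The median pairwise correlation of log2 CPM over libraries was in the PFC 0.10 for CTR and 0.12 for mCRS and in the NAc 0.10 for CTR and 0.04 for mCRS, where all genes had 0.01 to 0.03. Members of complex IV had 0.04 in PFC CTR and 0.27 in PFC mCRS mice, and those of complex III 0.21 and 0.14. With the mtDNA genes the members had a median correlation of 0.26 in PFC CTR and 0.36 in PFC mCRS mice, and of -0.12 and -0.13 in the NAc groups. These are descriptions over 15 or 16 libraries, which share depth and normalization.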

How the data were processed

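BRB-seq libraries were made from total RNA of the PFC and the NAc with barcoded oligo-dT primers, pooled, tagmented and sequenced. The authors mapped reads with STAR to GRCm38 (mm10), kept uniquely mapped reads and deposited raw counts per gene from htseq (HTSeq 0.9.1 in the submitters' processing notes), and 2 PFC samples of poor quality were removed by them. PCR copies of a fragment were counted without molecular identifiers. The table held 62 libraries of 945286 to 4857359 counts, which limits the precision of genes with few counts.

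Groups followed the sample titles. The main test within a region was the quasi-likelihood test of edgeR 4.0.16 in R 4.3.3, after TMM scaling and filterByExpr, with a Benjamini-Hochberg FDR over all genes tested. The study itself used the DESeq2 Wald test, here an alternative (DESeq2 1.42.0). Calls were made at an FDR or an unadjusted p below 0.05. The interaction and PFC against NAc in CTR mice were fitted in the same way. Log2 CPM used TMM factors and a prior count of 2. Fits were tested on simulated data drawn from the spread that the same fits estimated, which checks the code and not the calls reported here. Positions, principal transcripts and 70-base windows in the last 500 bases came from the GENCODE annotation of GRCm38, and a copied window occurs in the transcript of another gene.

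The members and lists were chosen with earlier results of these data known, and the division of complexes into structural parts was made after their values had been seen, so no list was tested as a set. Full statistics are given for members with an unadjusted p below 0.05 in a comparison of mCRS or, between regions, an FDR below 0.05, for the lowest member of each complex in the PFC a value, and for the pathway lists the 3 genes of smallest p in the PFC. Alternatives were DESeq2, RLE normalization, no mtDNA genes, no filter, the detected share of genes as a covariate, a robust spread, the replicate number as a block, all 62 libraries in 1 fit, and each library left out in turn. The fits without the 2 NAc libraries that stand apart were added after seeing the data.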

Additional observations from a re-analysis of the deposited data

How the results depend on the processing

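The direction of the median over all members was kept in each comparison under every alternative run. In the PFC, 12 members had an unadjusted p below 0.05, and there were 12 to 14 under DESeq2, RLE normalization, no mtDNA genes, no filter, a robust spread, the replicate block and all 62 libraries in 1 fit, and 10 to 14 with single libraries left out, where the median ran from 0.17 to 0.24. A covariate for the detected share of genes left 2. In the NAc, the count of 2 members was 1 with the replicate block, with all 62 libraries in 1 fit and without the 2 NAc libraries that stand apart, and 1 to 3 with single libraries left out (median 0.06 to 0.14). Cox4i1 was the member left in the fits with the block, with all libraries and without the pair that stands apart. Between regions there were 5 to 7 members at an FDR below 0.05, and 6 or 7 with single libraries left out (median 0.16 to 0.24). The median of complex II in the PFC changed sign from -0.05 to 0.10 with the replicate block, and ran from -0.12 to 0.15 with single libraries left out, above 0 without PFC CTR 7. That of complex III in the NAc ran from -0.014 (without NAc CTR 2) to 0.15. With single libraries left out, the median of complex IV between regions ran from 0.13 to 0.37 (without PFC CTR 15). Among these fits, the values above 0.3 came from the 6 in which Cox6a2 passed the filter and joined the 11 genes tested. Each of these 6 fits left out a PFC CTR library with 0 or few counts of Cox6a2. The fit with no filter and all libraries, in which Cox6a2 was also tested, gave 0.35. The causes of the shifts in complexes II and III were not tested. Leaving out single libraries was not run for the interaction.

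Libraries with the same number did not deviate together: their correlations of deviations from the group means ran from -0.03 to 0.05 and 0 pairs were over 0.1, so the numbers were not taken as pairs. With the replicate block 13 members in the PFC, 1 in the NAc, 7 in the interaction and 6 between regions were called, while the median of all genes moved to -0.14 in the PFC and to -0.12 between regions. Cox6a2, Atp5g2, Atp5l and Atp5s were at 0 in 6 to 24 libraries, so differences in them were hardly detectable at this depth.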
